A study of Homo sapiens with 4 samples.

Results

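The genes described here are 10 stress response genes that the transcription factor NRF2 is known to control, together with their glutathione and thioredoxin partners: TXNRD1, SRXN1, TXN, GCLC, GCLM, SLC7A11, NQO1, OSGIN1, HMOX1 and FTL. They lie on chromosomes 1 (GCLM), 4 (SLC7A11), 6 (GCLC), 9 (TXN), 12 (TXNRD1), 16 (NQO1 and OSGIN1), 19 (FTL), 20 (SRXN1) and 22 (HMOX1). They were chosen by name, as every array probe set whose single gene symbol was one of these, which gave 33 probe sets for 10 of the 18132 genes on the array. The choice was made with earlier results of these data known. U87MG, an established human glioblastoma cell line, was kept for 24 h with 10 µM mycophenolic acid (MPA), with 10 µM MPA plus 100 µM guanosine, with 100 µM guanosine, or with DMSO as the control. MPA inhibits IMP dehydrogenase, which opens the route from IMP to GMP and GTP, and added guanosine feeds the guanine nucleotide pool by salvage, past the inhibited step. Total RNA of each condition was read on 1 Affymetrix PrimeView array, so that 4 arrays hold all the data, every difference below is between 2 single cultures, and no p-value or spread between cultures can be given. The values are array signals on the linear scale or differences of their log2 values, as each sentence says.

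NRF2 is held at a low level by its partner KEAP1, which delivers it for degradation. Oxidants and electrophiles modify KEAP1, and NRF2 then enters the nucleus, pairs with a small MAF protein and binds antioxidant response elements near its target genes. The targets make and recycle the cell's thiol reductants (glutathione and thioredoxin), detoxify quinones and handle haem and iron. In glioma cells, as in other tumour cells, this programme is known for its part in tolerance of oxidative stress and drugs.

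The core of the antioxidant response element, TGACNNNGC on either strand, was looked for from 250 bases before to 50 bases after each RefSeq gene start (GRCh38.p14). Windows were found for 8 of the 10 genes, 9 windows in all because TXNRD1 has 2 listed starts. HMOX1 and SLC7A11 had no window and were not searched. The core was present in 3 of the 9 windows, belonging to GCLM and TXNRD1, and in 13.3% of all 35116 windows. Counted by gene, where TXNRD1 counts once, it was present in 2 of 8 genes and in 16.1% of all 27305 genes. A match is a match of letters and not a binding site, and no match says only that these letters are not in the window. The sequences below run from 150 bases before to 5 bases from the gene start, 5′ to 3′ on the gene's strand, with the matched core in capitals. They are shown because the genes with a match, GCLM and TXNRD1, had the lowest and the highest MPA difference of the 10, and because NQO1, which like TXNRD1 was higher with MPA, has no match there.
GCLM (chr1:93909426-93909580, minus strand): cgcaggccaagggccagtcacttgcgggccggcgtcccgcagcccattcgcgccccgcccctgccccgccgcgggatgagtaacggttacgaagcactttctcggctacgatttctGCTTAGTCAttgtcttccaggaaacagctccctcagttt
TXNRD1, upstream start (chr12:104215629-104215783, plus strand): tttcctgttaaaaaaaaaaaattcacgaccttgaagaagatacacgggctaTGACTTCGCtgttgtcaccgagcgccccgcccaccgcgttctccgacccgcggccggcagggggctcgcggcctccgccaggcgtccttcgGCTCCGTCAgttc
TXNRD1, downstream start (chr12:104286882-104287036, plus strand): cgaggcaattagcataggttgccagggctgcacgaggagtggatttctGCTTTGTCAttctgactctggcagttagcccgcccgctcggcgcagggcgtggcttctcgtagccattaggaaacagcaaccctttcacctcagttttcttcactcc
NQO1 (chr16:69726556-69726710, minus strand): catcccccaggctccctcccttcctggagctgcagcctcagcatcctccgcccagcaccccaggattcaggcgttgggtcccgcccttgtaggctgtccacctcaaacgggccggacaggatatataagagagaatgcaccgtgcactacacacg
In GCLM the core begins 34 bases before the start, at the upstream TXNRD1 start 99 and 8 bases before it, and at the downstream TXNRD1 start 102 bases before it. The matches at GCLM and at the downstream TXNRD1 start lie on the opposite strand to the gene, and so does the one 8 bases before the upstream start.

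With MPA alone, some of the 10 genes had a higher signal than in the control and some a lower one. NQO1, TXNRD1, OSGIN1, SRXN1, GCLC and FTL had a higher signal with MPA than in the control. GCLM, HMOX1, SLC7A11 and TXN had a lower one. Each gene was read on the probe set that stands for it, its brightest. Only _x_at probe sets, whose probes can bind more than 1 gene, were set aside where a gene has another kind, and _s_at probe sets were kept. On these probe sets 6 of 10 genes were higher, near the 50.3% of all genes that were. Read as the median of its probe sets, TXN was higher too, at 0.21, which made 7 of 10. In bulk RNA, a change in the share of cells that express a gene and a change in its RNA per cell cannot be told apart. The difference was at least 1.5-fold for TXNRD1, NQO1 and OSGIN1 upward and for GCLM downward, 3 and 1 of 10 genes, against 5.41% of all 10951 genes compared upward and 7.52% downward. With a gene taken as the median of its probe sets, OSGIN1 was at 0.56 and 2 genes passed upward. None of the 10 (0) reached 2-fold, which 1.73% of all genes did upward and 1.42% downward. The median log2 difference of the 10 genes was 0.26, with a range from -0.66 to 0.80, and the median over all genes was 0.0024. Over the 31 member probe sets at or above the floor, 6 passed 1.5-fold upward and 1 downward, against 4.67% and 7.58% of all probe sets. The floor is the median signal of the series, 63.0, below which a value is treated as dim.

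**Figure D1:**
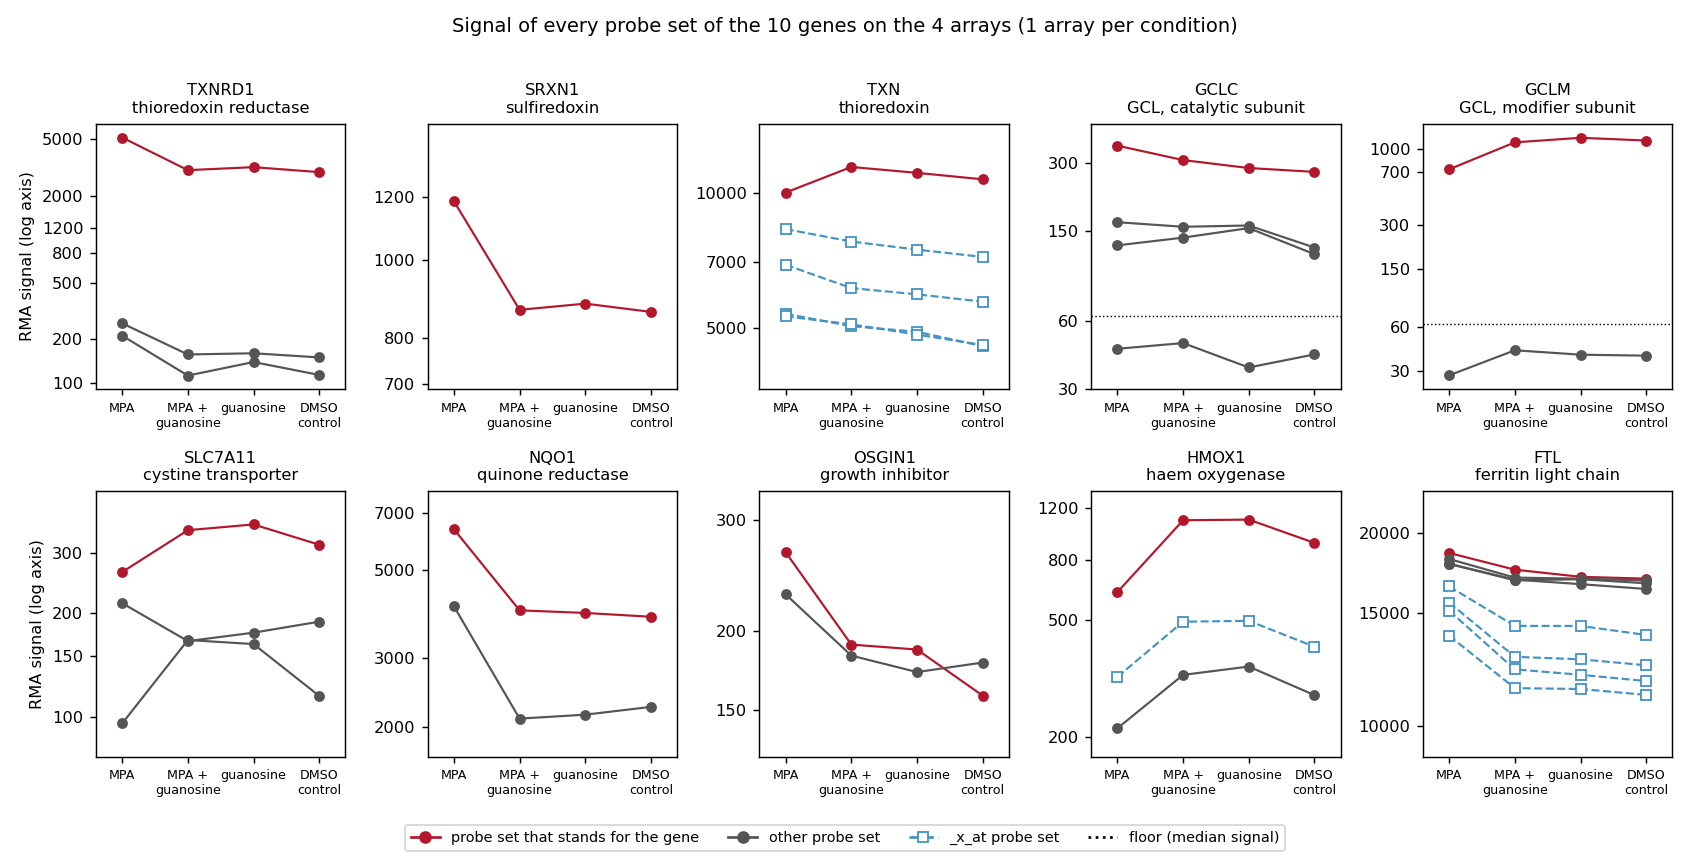
RMA signal (log axis, scaled per gene) of all 33 probe sets of the 10 genes on the arrays for MPA, MPA plus guanosine, guanosine and DMSO control. Points are single arrays, the red line is the probe set that stands for the gene, blue dashed lines are _x_at probe sets and the dotted line is the floor; TXNRD1, NQO1 and SRXN1 are highest and GCLM and HMOX1 lowest on the MPA array.

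In the thioredoxin arm, TXNRD1 encodes the selenoenzyme that reduces thioredoxin with NADPH. Its bright probe set 11715649_s_at had a signal of 5157 with MPA, 3051 with both compounds, 3202 with guanosine and 2955 in the control, so that the MPA array stood alone above the other 3. That is 1.75-fold higher with MPA than in the control, giving a log2 difference of 0.80, higher than 97.2% of all genes. A dimmer probe set, 11750416_a_at, had 259 with MPA, 157 with both, 160.1 with guanosine and 149.8 in the control. The third, 11715650_a_at, had 213 with MPA, 112 with both, 139 with guanosine and 113 in the control. All 3 probe sets thus differed by between 0.79 and 0.91 on the log2 scale, each past 1.5-fold, as were both probe sets of NQO1.

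SRXN1 encodes sulfiredoxin, which repairs peroxiredoxins that have been over-oxidised. Its single probe set had 1185 with MPA, 867 with both, 883 with guanosine and 862 in the control. Again the MPA array alone was high: the other 3 lay within 0.03 of each other on the log2 scale, and the MPA difference from control was 0.46, or 1.38-fold.

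TXN encodes thioredoxin itself, and its probe sets did not move one way. The probe set that stands for the gene, 11715469_s_at, had 10029.6 with MPA, 11442 with both, 11100.4 with guanosine and 10737 in the control, giving a log2 difference of -0.10 for MPA against control. The other 4 are _x_at probe sets, whose probes can bind more than 1 gene, and they had 0.21 to 0.27 more on the log2 scale with MPA than in the control. The direction of TXN with MPA therefore depends on which of its probe sets is read.

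Glutathione synthesis starts with glutamate-cysteine ligase, made of the catalytic subunit GCLC and the modifier subunit GCLM, which lowers the enzyme's sensitivity to feedback by glutathione. The subunits' transcripts lay on opposite sides of the control on the MPA array. GCLM (11723490_at) had 728 with MPA, 1114 with both compounds, 1197 with guanosine and 1147 in the control, and the MPA array was below the other 3, which spanned 0.10 on the log2 scale. The log2 difference was -0.66, with 5.65% of all genes lower, and it was -0.58, just under 1.5-fold, after cyclic loess (an intensity-dependent rescaling between arrays). Its other probe set was below the floor on all 4 arrays, with signals from 28.1 to 41.7.

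GCLC (11754931_a_at) had 356 with MPA, 308 with both, 284 with guanosine and 273 in the control, giving a log2 difference of 0.38 or 1.31-fold. A second probe set, 11750770_a_at, had 164 with MPA, 156 with both, 158 with guanosine and 127 in the control. There the control was the low array and the other 3 lay close together. The third above the floor, 11729218_a_at, had 129.5 with MPA, 140.1 with both, 154 with guanosine and 118 in the control, so the MPA array lay inside the range of the others. All 3 exceeded the control on the MPA array, by 0.13 to 0.38, but only 1 of them placed MPA more than the others' own range above them.

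SLC7A11 encodes the transporter that exchanges glutamate for cystine, the source of cysteine for glutathione. The probe set 11721876_s_at had 263 with MPA, 348 with both, 362 with guanosine and 316 in the control, giving a log2 difference of -0.26. A second one, 11721875_at, had 95.8 with MPA, 167 with both, 163 with guanosine and 115 in the control, and differed by -0.27. The third, 11744680_a_at, ran the other way, with 214 with MPA, 166 with both, 176 with guanosine and 189 in the control. So 2 probe sets had MPA lowest and 1 had it highest, none of them past 1.5-fold against control.

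Among the detoxifying genes, NQO1 encodes the quinone reductase that is the common marker of NRF2 activity. Probe set 11717567_a_at had 6348 with MPA, 3954 with both, 3894 with guanosine and 3808 in the control. Probe set 11717568_s_at had 4048 with MPA, 2101 with both, 2149.6 with guanosine and 2249.6 in the control. Both showed the MPA array well apart, with differences of 0.74 and 0.85 on the log2 scale against a range of 0.05 and 0.10 among the other 3 arrays.

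OSGIN1 encodes a growth inhibitor induced by oxidative stress. Its probe set 11735676_a_at had 267 with MPA, 190.4 with both, 187 with guanosine and 158 in the control, a difference of 0.75. The other, 11744045_a_at, had 229 with MPA, 183 with both, 172 with guanosine and 178 in the control, a difference of 0.36. The MPA array was highest on both probe sets, but only the first passed 1.5-fold.

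In haem and iron handling, HMOX1 encodes the inducible haem oxygenase, which breaks haem down to biliverdin, iron and carbon monoxide. Its probe set 11716939_a_at had 622 with MPA, 1091 with both, 1097 with guanosine and 914 in the control, with a log2 difference of -0.55 for MPA against control, just short of 1.5-fold. A second one, 11753445_a_at, had 215 with MPA, 326 with both, 348 with guanosine and 278 in the control, and differed by -0.37. The _x_at probe set 11753446_x_at had 321 with MPA, 494 with both, 497 with guanosine and 406 in the control, and differed by -0.34. All 3 had the same order of arrays in one respect: MPA was lowest, the control came next, and both arrays with guanosine were above the control.

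FTL encodes the light chain of ferritin, the iron store. All 8 probe sets were higher with MPA than on the other 3 arrays, and none passed 1.5-fold. The one that stands for the gene, 11757326_s_at, had 18626 with MPA, 17537 with both, 17092 with guanosine and 16978 in the control, a difference of 0.13. The 4 _x_at probe sets of FTL differed by 0.25 to 0.37 and the other 4 by 0.10 to 0.13, so the size, though not the direction, went with the kind of probe set.

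Adding guanosine asks whether the MPA differences remain when guanine nucleotides can be made by salvage. Both compounds against guanosine alone, which shares no array with MPA against control, gave log2 differences between -0.10 and 0.12 for the 10 genes, with a median of 0.0073. At 1.5-fold 0 of 10 genes passed upward and 0 downward, against 0.0% and 0.0189% of 10599 genes. NQO1 differed by 0.02, TXNRD1 by -0.07, OSGIN1 by 0.03, SRXN1 by -0.03, HMOX1 by -0.0074 and GCLM by -0.10. Over the 31 probe sets the largest size was 0.31, for TXNRD1 11715650_a_at, which was 112 with both and 139 with guanosine. These counts are near the background of that comparison, in which almost no gene of the array passed either.

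**Figure D2:**
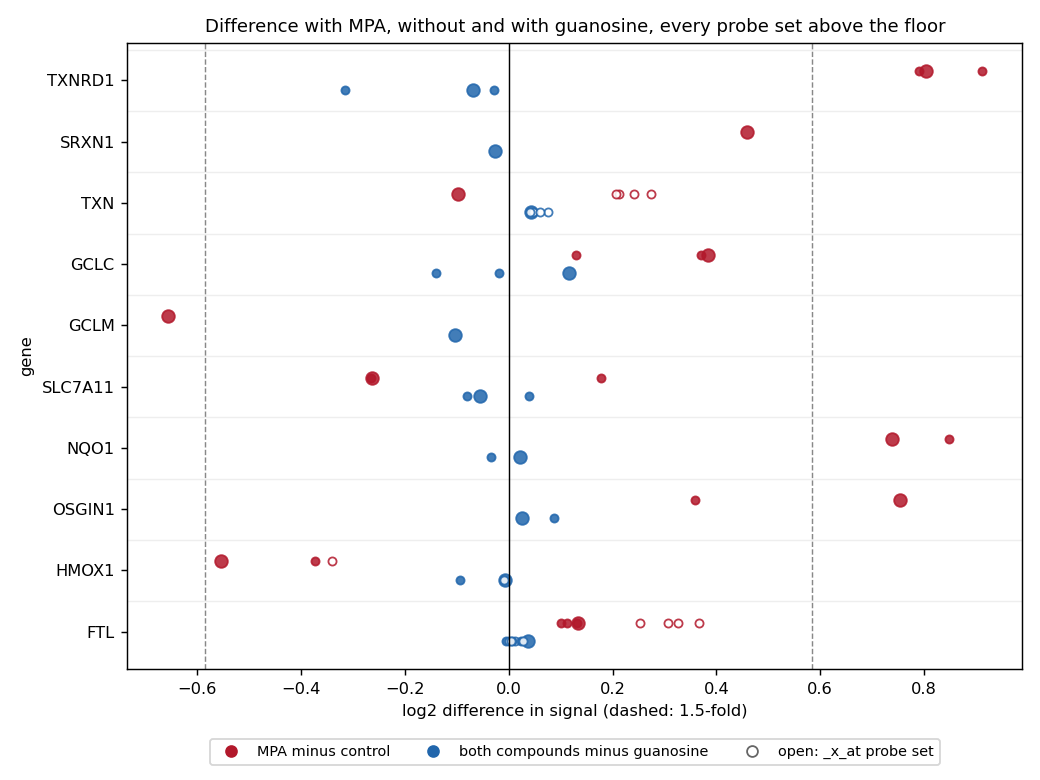
Log2 difference in signal of each probe set above the floor, MPA minus control (red) and both compounds minus guanosine (blue); large points stand for the gene, open points are _x_at probe sets and dashed lines mark 1.5-fold. The blue points of the 10 genes lie between -0.31 and 0.12, and the red ones between -0.66 and 0.91.

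The MPA difference without guanosine minus that with guanosine uses each array once. It was 0.87 for TXNRD1, 0.73 for OSGIN1 and 0.72 for NQO1, 3 of 10 genes at or above 1.5-fold where 5.35% of all 11019 genes were. On the lower side it was -0.55 for GCLM and -0.55 for HMOX1, so 0 of 10 passed, where 8.49% of all genes did. The median of the 10 genes was 0.18.

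Both compounds against MPA gives the effect of guanosine in MPA-treated cells. It shares the MPA array with MPA against control. HMOX1 was 1.75-fold and GCLM 1.53-fold higher with both compounds, and TXNRD1 and NQO1 had log2 differences of -0.76 and -0.68. These are 2 genes of 10 upward and 2 downward past 1.5-fold, against 8.82% and 4.77% of all genes. GCLM no longer passed after cyclic loess, at 0.51, or after each array was centred on the median of genes above the floor. For HMOX1 all 3 probe sets passed. SLC7A11 11721875_at differed by 0.80 and its probe set 11721876_s_at by 0.40. Its remaining probe set, 11744680_a_at, went the other way, at -0.37.

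MPA against guanosine sets the MPA array against a different array from the control. NQO1 at 0.71 and TXNRD1 at 0.69 passed 1.5-fold upward, and HMOX1 at -0.82 and GCLM at -0.72 downward, 2 and 2 of 10 genes, against 5.19% and 7.76% of all genes. OSGIN1 stood at 0.51 there. On all 10 genes the MPA array lay outside the other 3 by more than their own range, 6 above and 4 below, which was so for 51.8% of all genes. At the level of probe sets it was 24 of 31, against 49.6%.

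Guanosine by itself moved the 10 genes little. Against control, 10 of 10 genes were higher with guanosine, by 0.01 to 0.26, where 49.5% of all genes were higher. The smallest of these differences changed sign in 2 of the alternative settings, leaving 9 of 10 higher: FTL stood at -0.0041 after centring of the arrays, and NQO1 at -0.02 as the median of its probe sets. At 1.5-fold 0 genes passed in either direction, against 0.366% upward and 0.131% downward. On the probe set that stands for each gene, HMOX1 was furthest at 0.26, with 0.32 and 0.29 on its other probe sets. OSGIN1 at 0.24 (-0.05 on its other probe set) and SLC7A11 at 0.20 came next. GCLC was at 0.06 there, but at 0.38 on 11729218_a_at and 0.32 on 11750770_a_at. As the median of its probe sets GCLC was at 0.32, above HMOX1 at 0.29, so the order depends on the probe set. The widest single difference was that of SLC7A11 11721875_at, 0.50, while its probe set 11744680_a_at stood at -0.11. Both compounds against control, which shares the control array, had 9 of 10 genes higher, where 54.3% of all genes were, and 8 of 10 after cyclic loess, after centring or with the median of probe sets. HMOX1 was at 0.26 in it and OSGIN1 at 0.27. At 1.5-fold 0 of the 10 passed there, against 0.469% and 0.169% of all genes.

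**Figure D3:**
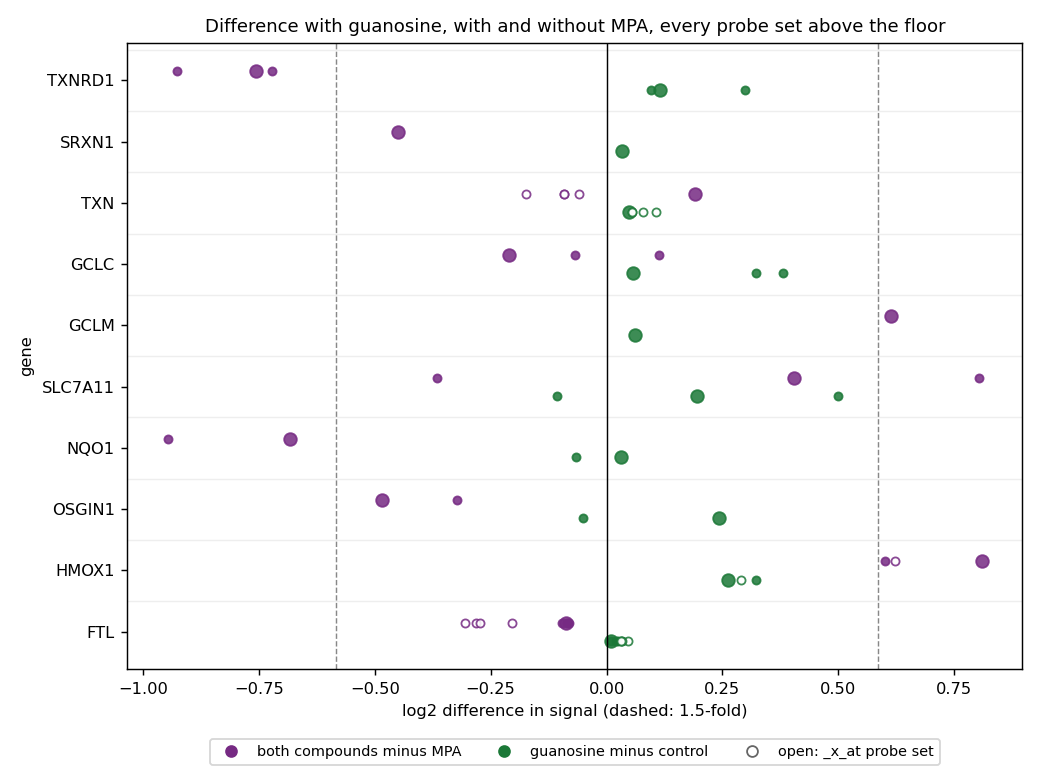
Log2 difference in signal of each probe set above the floor, both compounds minus MPA (purple) and guanosine minus control (green); large points stand for the gene, open points are _x_at probe sets and dashed lines mark 1.5-fold. Without MPA the green points lie between -0.11 and 0.50. With MPA, the purple points of HMOX1 and GCLM and that of SLC7A11 11721875_at are past 1.5-fold upward. Those of TXNRD1 and NQO1 are past it downward.

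The wider pathway was read from 8 lists that hold 101 other genes, of which 88 had a probe set with a single symbol and 78 reached the floor in MPA against control. Of these 78, 53 were higher and 25 lower, where 50.3% of all genes were higher. Past 1.5-fold were 10 upward and 2 downward, and the median was 0.12. Each count of higher genes in the lists below is to be read beside the same 50.3%. The background shares at 1.5-fold are the 5.41% and 7.52% given above. With signals below the floor raised to it, 9 passed upward and 2 downward, with a median of 0.11, against 4.92% and 7.22% of all genes. With both compounds against guanosine, 0 of 76 passed in either direction.

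Other known NRF2 targets held most of the large differences: 10 of 14 were higher with MPA, 7 by at least 1.5-fold, and the median was 0.61. Of all genes, 50.3% were higher and 5.41% were at least 1.5-fold higher. The list was chosen with earlier results of these data known, so its counts are not independent of them. One of the 7, EPHX1, had a control signal of 43.7, below the floor, and with such signals raised to the floor 6 passed and the median was 0.45. AKR1B10, an aldo-keto reductase, had a signal of 1394 with MPA, 496 with both, 478 with guanosine and 546 in the control. The drug and conjugate exporter ABCC3 had 388 with MPA, 184 with both, 174 with guanosine and 156 in the control. ABCC2, of the same transporter family, had 692 with MPA, 289 with both, 293 with guanosine and 279 in the control. On each of these genes only the MPA array was high, and the folds over control were 2.56, 2.49 and 2.48. ABCC3 rests on 1 probe set, since its other one differed by 0.24.

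The steroid and aldehyde reductases AKR1C1, AKR1C2 and AKR1C3 are similar in sequence, and the array may not fully separate them. AKR1C3 had 2230.1 with MPA, 955 with both, 974 with guanosine and 1104 in the control, and AKR1C1 differed by 0.92. AKR1C2, at 0.58, fell just under 1.5-fold. PIR differed by 0.74, and EPHX1, with 67.7 with MPA, was at least 1.07-fold higher than the floor that stands in for its dim control. The quinone reductase NQO2 was the lowest of the list, at -0.39. AKR1C1, AKR1C2, PIR and EPHX1 were named after their values were seen.

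Among the NRF2 regulators, NFE2L2, the gene of NRF2 itself, had 2177 with MPA, 1693 with both, 1731 with guanosine and 1714 in the control, giving a log2 difference of 0.34. KEAP1 differed by -0.06. SQSTM1, whose product p62 binds KEAP1 and is itself a known NRF2 target, was the highest of the list with 7197 with MPA, 5221 with both, 5238 with guanosine and 4498 in the control, and its 4 other probe sets differed by 0.76 to 1.49. CUL3, the scaffold of the ligase that uses KEAP1, was lowest at -0.31. The list had 5 of 7 genes higher and 1 past 1.5-fold.

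Glutathione genes were divided, with 14 of 22 higher, 8 lower and 1 past 1.5-fold each way. The glutathione peroxidase GPX1 had 10558 with MPA, 6374 with both, 6488 with guanosine and 6638 in the control. GPX1 was read on an _x_at probe set, whose probes can bind more than 1 gene. CHAC2, which degrades glutathione, was lowest at -0.62, with 217 with MPA, 295 with both, 281 with guanosine and 334 in the control. Of the synthesis and recycling steps, glutathione synthetase GSS stood at 0.48 and glutathione reductase GSR at 0.30, both named after their values were seen. The median of the list was 0.05, close to that of all genes.

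In the thioredoxin and peroxiredoxin list 8 of 13 genes were higher, with a median of 0.04. TXNIP, which binds and inhibits thioredoxin, had 6228 with MPA, 1718 with both, 1827 with guanosine and 2530.4 in the control, 2.46-fold higher with MPA than in the control. It was the only gene of that list past 1.5-fold. The mitochondrial reductase TXNRD2 was lowest at -0.46, where cytosolic TXNRD1 was at 0.80.

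The partner of SLC7A11 in the cystine transporter, SLC3A2, had 641 with MPA, 444 with both, 434 with guanosine and 456 in the control, a difference of 0.49, with 0.26 to 0.50 on its 6 other probe sets. The glutamine transporter SLC1A5 was the lowest of the cystine and transsulfuration list at -0.86, the 1 gene of the 6 past 1.5-fold, and 3 of the 6 were higher. In the NADPH list 4 of 5 genes were higher, from IDH1 at -0.08 to transketolase TKT at 0.34. In the haem and iron list 6 of 8 were higher, from PCBP1 at -0.21 to the ferritin receptor of autophagy NCOA4 at 0.47. The superoxide and peroxide enzymes had 3 of 3 higher, from SOD1 at 0.17 to SOD3 at 0.57, but the other probe set of SOD3 stood at 0.06 and those of SOD1 between -0.08 and 0.17. In these last 3 lists 0 genes passed 1.5-fold.

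**Figure D4:**
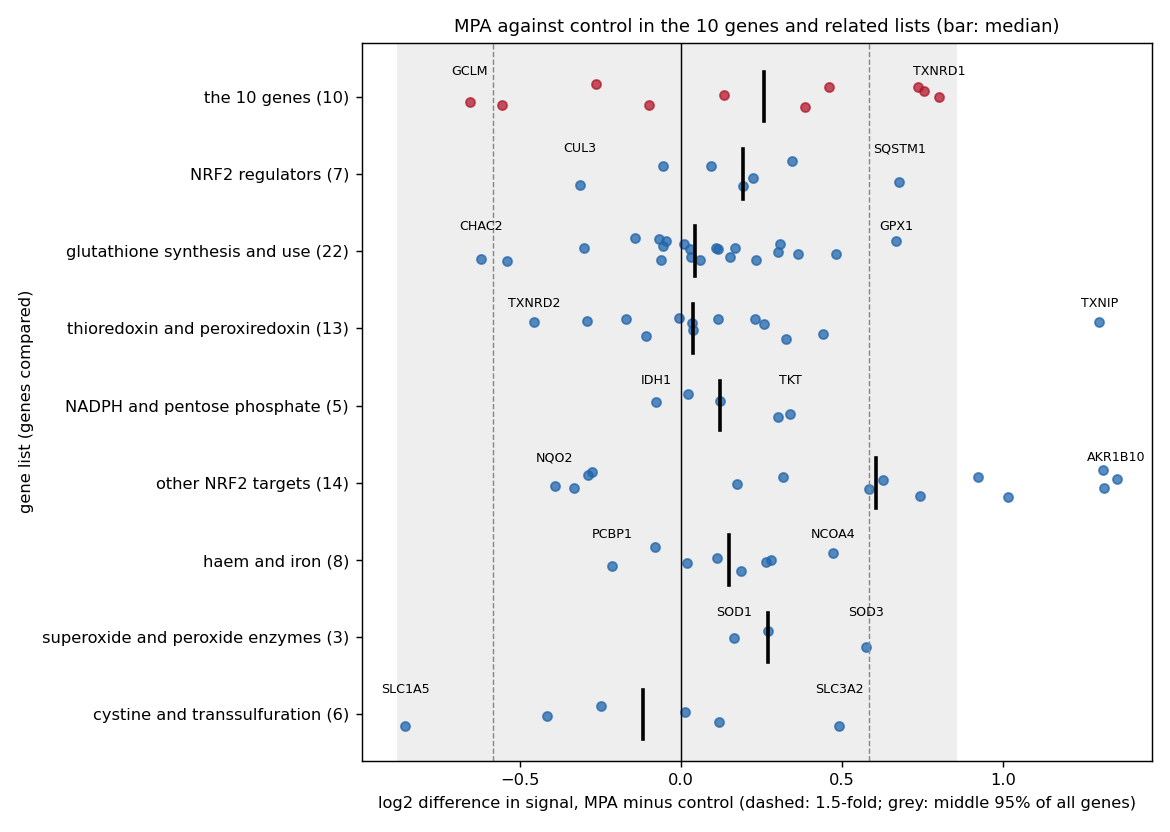
Log2 difference in signal, MPA minus control, for the 10 genes (red) and for the genes above the floor in 8 related lists (blue), with the list median as a bar; the highest and lowest gene of each list are named, dashed lines mark 1.5-fold and grey spans the middle 95% of all genes. The other NRF2 targets have the highest median, 0.61 as drawn and 0.45 with signals below the floor raised to it, and the cystine and transsulfuration list the lowest, -0.12.

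The genes whose 3 differences from control (MPA, guanosine, both) lay closest to those of TXNRD1, by Euclidean distance among 10145 genes above the floor on all 4 arrays, were C21orf91 at 0.02, PTP4A1 at 0.06 and CFAP300 at 0.07. Closest to GCLM were CEP89 at 0.02, ERI1 at 0.02 and HNRNPF at 0.03. With 4 arrays, each likeness rests on 3 numbers that share the control.

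Some readings of the arrays as a whole moved with MPA. The poly-A spike-in transcripts had a lower signal on the MPA array than on the control array for 12 of 12 probe sets. Their median difference from control was -0.29 with MPA, 0.27 with both compounds and 0.22 with guanosine. The 6 background probe sets of high GC content (20 or more G or C bases per probe) went the other way, with a median of 0.26 with MPA, -0.15 with both and -0.08 with guanosine. Over all probe sets the log2 signals correlated with those of the control at r = 0.990 with MPA, 0.997 with both and 0.997 with guanosine. The part of these readings in the differences of the 10 genes was not tested.

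The 5 mesenchymal glioma markers measured were bright on all arrays. Of them 2 were higher with MPA and 3 lower, with a median of -0.11, which is that of VIM at 18322 with MPA and 19783 in the control. CHI3L1, a secreted glycoprotein, was the 1 marker of that list past 1.5-fold, with 1932 with MPA, 1192 with both, 1158 with guanosine and 1201 in the control, so that only the MPA array was high. Among the astrocyte and glial lineage markers, GFAP was above the floor on all 4 arrays but near it, at 99.6 with MPA and 87.8 in the control. OLIG2 had between 53.4 and 68.0 on the 4 arrays, and SOX2, S100B and AQP4 were below the floor on all 4 arrays. The leukocyte genes PTPRC, CD14, CD3E and LYZ and the endothelial genes PECAM1 and CDH5 were below the floor on all 4 arrays, on the probe set that stands for each. The third endothelial marker, VWF, was above the floor on all 4 but near it, with 111 with MPA, 80.1 with both, 90.4 with guanosine and 93.6 in the control. CD68, a lysosomal protein of macrophages and other cells, was bright on all 4 arrays. It had 1871 with MPA, 1325 with both, 1342 with guanosine and 1200 in the control, a difference of 0.64, past 1.5-fold. Its other probe set differed by 0.52, short of 1.5-fold. Of the 5 epithelial markers, EPCAM had 102 with MPA and was below the floor on the other 3 arrays. KRT5 and KRT8 differed by 0.04 and 0.16, both near the floor, with KRT8 at 62.3 in the control. KRT18 had 78.6 in the control and 57.3 with MPA, below the floor. Against the floor it was at least 1.2-fold lower. CDH1 was below the floor on all 4 arrays. The part of these markers in the differences of the 10 genes was not tested.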

How the data were processed

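The deposited values are signal intensity values per probe set on the linear scale, named as RMA signal per the labels; RMA corrects background, quantile-normalises arrays and summarises probes. The sources used here do not give software, version or settings. A change in total mRNA per cell would be hidden by the quantile step. The log2 of each value was taken with Python 3.11.15 and pandas 2.3.3, with no pseudocount. Of 49395 probe sets, those with 1 symbol in the platform's gene table were used, 102 control probe sets apart. A gene is its probe set with the highest mean, _x_at probe sets only where it has no other. Among the listed genes named in the text, GPX1, ATF4, PCBP1, CD68, KRT8 and KRT18 were read on _x_at probe sets. A gene or probe set entered a comparison when the brighter array reached the floor, the median of non-control values. Counts at 1.5-fold are described with no test, since each condition has 1 array; the number of arrays limits the precision. Counting was tested on simulated arrays. The members and lists were chosen with earlier results of these data known. Named from each list are the highest and lowest gene, up to 3 more past 1.5-fold, and NFE2L2, KEAP1 and SLC3A2. Promoter sequences are from RefSeq, GRCh38.p14. Alternatives covered the floor, the choice of probe set and the scaling, with cyclic loess by limma 3.58.1 (3 iterations).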

Additional observations from a re-analysis of the deposited data

How the results depend on the processing

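With 1 array per condition, the processing choices are the only check that can be run, and none of them speaks to the spread between cultures. Of 126 summary values recomputed (medians and counts at 1.5-fold, in 6 comparisons and 7 alternatives), 123 stayed within 0.1 on the log2 scale or within 1.5 times the count. The exceptions were counts near the threshold. In MPA against control, 0 genes were at least 1.5-fold lower after cyclic loess, since GCLM was at -0.58. In both compounds against MPA, 1 gene was at least 1.5-fold higher after cyclic loess and 1 after centring each array on the median of genes above the floor. Of 417 values of single genes, 399 moved by less than 0.1, 18 moved more and 0 past 1.5-fold changed sign. Of the 18, 15 came from using the median over all probe sets of a gene and 3 from cyclic loess. The settings for the floor and for _x_at probe sets could not move these values, only leave some out. On the probe sets that stand for them, all 10 genes were at or above the floor on all 4 arrays, and none changed its probe set. The 399 and the 123 therefore count many values that were fixed beforehand. In MPA against control, 9 of the 10 genes kept 1 sign in every setting, and TXN ranged from -0.10 to 0.21. In guanosine against control 8 of the 10 did, the exceptions being FTL and NQO1. No paired analysis was possible because each condition has 1 array. Dim probe sets limit GCLM and GCLC, each with 1 probe set below the floor on all arrays.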

Other observations

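Outside the 10 genes, probe sets of 1 gene differed in size or direction. In MPA against control GPX8 stood at 0.03 on its main probe set and at -0.83 on its other one. The 3 probe sets of CUL3 were all lower, at -0.31 on the main one and at -0.60 and -0.28 on the others. The transcription factor ATF4, which also controls SLC7A11, had a signal of 2270.0 with MPA, 4006 with both compounds, 3931 with guanosine and 3026 in the control, lowest on the MPA array. ATF4 was read on an _x_at probe set. CTH, an enzyme that makes cysteine from cystathionine, had 88.0 with MPA, 114 with both compounds, 89.2 with guanosine and 81.0 in the control, highest with both. Over the related genes that have a RefSeq window, 20 of 72 held the TGACNNNGC core, 27.8%, where 16.1% of all 27305 genes did. These genes were named after their values were seen, and no test was made.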
